A study of Homo sapiens with 2 samples.

Results

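The genes that drive and mark the switch of a cell from an epithelial to a mesenchymal state were examined in A375 cells after knockdown of THOC2. The 9 genes are the transcription factors SNAI1, SNAI2, TWIST1, TWIST2, ZEB1 and ZEB2, the cadherins CDH1 and CDH2, and the intermediate filament gene VIM. They were taken by symbol from the deposited annotation of the array, which holds 34757 gene symbols, and all 17 of their probes are accounted for. A375 is an established line from a human malignant melanoma, and THOC2 is a subunit of the THO complex, which couples transcription to the packaging and export of mRNA. One culture was transfected with si-THOC2 and one with the control siRNA NC, and total RNA was collected 48 h later. Each RNA was hybridised to 1 Agilent SurePrint G3 array in 1 colour. There was no replicate of either condition, so no test was possible and each value below compares these 2 arrays only. The methods list 4 siRNAs against THOC2 without naming the one used here.

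In epithelia, E-cadherin (CDH1) joins neighbouring cells through catenins. Factors of the SNAI, TWIST and ZEB families act as repressors of CDH1, mainly at E-box motifs of its promoter, and their rise is accompanied by N-cadherin (CDH2) and vimentin (VIM). This exchange is called the cadherin switch. Melanocytes differ from epithelia in that they normally carry SNAI2 and ZEB2, while a shift to TWIST1 and ZEB1 has been tied to less differentiated melanoma. VIM is normally present in cells of the melanocyte lineage.

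The label fields of the samples contradict each other. For both arrays the title and description give one condition and the source field gives the other. The titles and descriptions were used here. THOC2 itself was lower in the cells that these fields name as knocked down. The processed signal of its probe A_24_P177353 was 136 in NC and 40.9 in si-THOC2 cells, and the log2 difference was -1.42 (technical SD 0.10). The second probe, A_33_P3235690, gave 67.3 and 35.1 and a difference of -0.63 (technical SD 0.22). The processed signal is an intensity from which the scanner software has subtracted the background. Differences are si-THOC2 minus NC after each array was scaled to its own 75th percentile, which lay at log2 6.62 with NC and 6.31 with si-THOC2. A processed signal that is somewhat lower with si-THOC2 can therefore correspond to a difference above 0. The technical SD is the scatter of repeated spots at a like signal and holds no spread between cultures. It was 0.42 below log2 4, 0.22 from 4 to 6, 0.10 from 6 to 8 and 0.05 above 8. The 0.22 rests on only 6 repeated probes and the 0.42 on 14, so both are rough.

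Of the melanocyte lineage markers, 7 of 11 were detected with NC and 8 of 11 with si-THOC2. SOX10, a master regulator of that lineage, gave 6196 and 5196 (log2 difference 0.06), whereas the pigment genes PMEL, TYR and TYRP1 were not well above background on either array. The detected markers of the list ran from -0.66 for S100B to 0.75 for DCT and 2.98 for MLANA. MLANA gave a dim 3.12 with NC and 18.7 with si-THOC2, on 1 of 2 probes and near the detection limit of 15.9. Its 2.98 thus rests on an NC signal below detection and is not a measured fold. Of 5 markers of undifferentiated melanoma, 4 were detected on both arrays. They ran from -0.22 for AXL, a receptor tyrosine kinase of that state (23189 and 16034), to 0.32 for NGFR, the nerve growth factor receptor (568 and 571). Of 6 fibroblast markers, the collagens COL1A1 and COL3A1, with LUM and PDGFRA, were not above background. PDGFRB stood at -0.10, and DCN, a matrix proteoglycan, was past 2-fold, with 62.4 and 149 on its 1 detected probe (1.56). Of 4 keratinocyte markers KRT5 and KRT1 were below background, KRT10 stood at -0.34, and KRT14 stood at 1.06 over 2 probes, of which 1 was dim with NC. Of 3 leukocyte markers, PTPRC gave 27.4 and 28.9 (0.39) and CD3E gave 25.3 and 37.4 (0.87), and CD68 had no probe under that symbol. Of 3 endothelial markers, 3 were detected with NC and 1 with si-THOC2, all at signals near the limit of detection. The part of these markers in the values of the 9 genes was not tested. RNA of a bulk culture cannot tell fewer cells of a type from less RNA per cell.

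The probes are the part of each gene that was measured, and for TWIST1, ZEB2 and VIM their position decides what a value describes. Their sequences in the array design are given 5′ to 3′ in lower case on the strand of the transcript, with positions on hg19. For TWIST1 the first probe belongs to the coding transcript NM_000474 (chr7:19156462-19156521, minus strand). The other pair shown belongs to XR_428085, a predicted transcript that carries the TWIST1 symbol (chr7:19039842-19039901 and chr7:19039592-19039651, minus strand) and lies 116 kb away. For ZEB2 the first probe (chr2:145182363-145182422, minus strand) and the probe of the non-coding NR_033258 (chr2:145268973-145269032, minus strand) are shown. Both stayed below background. The 60 bases of the VIM probe map to a span of 910 bp (chr10:17278347-17279256, plus strand), so that the probe joins separate stretches of the genome.
TWIST1 A_33_P3414591: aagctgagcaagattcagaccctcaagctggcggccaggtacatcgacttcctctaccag
TWIST1 A_21_P0005474: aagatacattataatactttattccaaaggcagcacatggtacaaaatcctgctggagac
TWIST1 A_21_P0005597: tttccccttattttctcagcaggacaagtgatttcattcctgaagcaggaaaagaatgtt
ZEB2 A_33_P3243832: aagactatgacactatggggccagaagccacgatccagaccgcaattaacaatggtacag
ZEB2 A_21_P0000590: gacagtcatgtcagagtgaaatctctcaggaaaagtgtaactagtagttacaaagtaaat
VIM A_23_P161190: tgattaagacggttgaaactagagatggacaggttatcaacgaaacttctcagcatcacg

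Of the 17 probes, 11 exceeded background clearly on both arrays (the scanner's mark for a signal well above it), 1 on the NC array only, and 5 on neither. The 12 probes with a signal on at least 1 array were compared, and they cover 8 of the 9 genes. The exception was CDH1. At 2-fold, 1 of the 12 was lower with si-THOC2, against 3.33% of all 25345 probes compared, and 1 was higher, against 2.93%. Both carry weak signals, and each was at odds with another probe of its gene. Among probes well above background on both arrays, 1 of 11 was higher by 2-fold, where 0.829% of 22207 probes were, and 0 of 11 were lower, where 0.365% were. The remaining 10 of these 11 probes lay between -0.36 and 0.14, with a median of -0.10, 6 below 0 and 4 above. All 22207 probes had a median of 0.04, and the middle 90% of them ran from -0.48 to 0.53. No member gene had all of its compared probes past 2-fold.

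**Figure D1:**
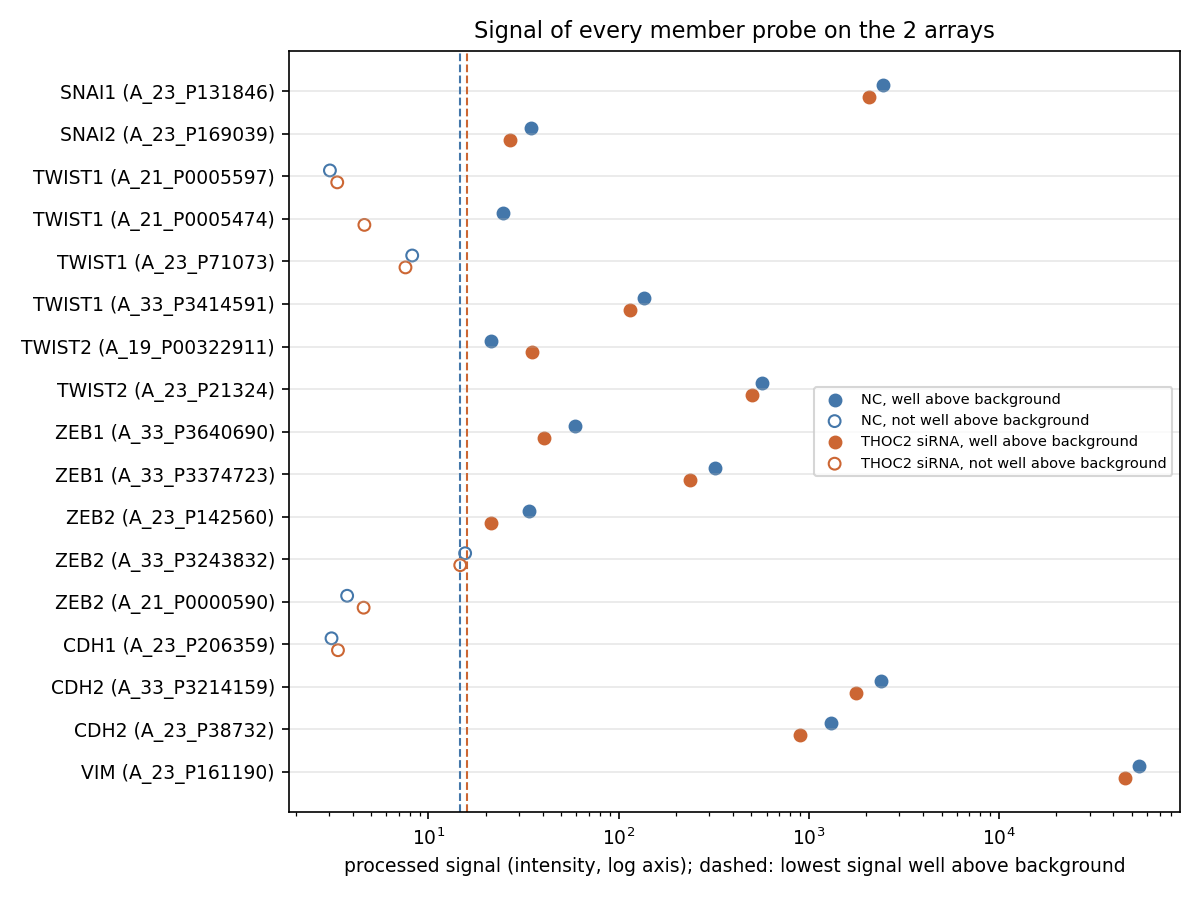
Processed signal (intensity, log axis) of the 17 probes of the 9 genes with NC and with si-THOC2. Filled points are well above background and open points are not, and the dashed lines mark each array's lowest signal that the scanner software marked so (14.7 with NC and 15.9 with si-THOC2). CDH1 lies at the lower edge on both arrays, while SNAI1, CDH2 and VIM lie far above the lines on both.

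SNAI1 (Snail), a zinc finger repressor of CDH1, was strongly detected. Its probe A_23_P131846 (chr20:48605170-48605229, plus strand) gave 2473 with NC and 2087 with si-THOC2. The log2 difference was 0.06, close to its technical SD of 0.05, and with quantile normalization it was -0.0025, so its sign depends on the scaling. SNAI2 (Slug), the family member that melanocytes need for their migration, was measured by A_23_P169039 (chr8:49830710-49830769, minus strand). Its signals of 34.8 and 26.7 stood a little over the detection limit on both arrays. The difference was -0.07 with a technical SD of 0.22, so a modest change in SNAI2 was not detectable at this signal.

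TWIST1 and TWIST2 are basic helix-loop-helix factors that bind DNA as dimers with E proteins. For TWIST1 the 4 probes gave 3 different pictures. The coding probe A_33_P3414591 gave 136 and 115, a difference of 0.07 (technical SD 0.10). In its block of spots 8.29% of the compared probes were lower by 2-fold, above the median of 2.54% over all blocks. With each block centred on its own median its difference was 0.11. The second probe placed on the gene, A_23_P71073 (chr7:19155645-19155704, minus strand), gave 8.21 and 7.57 and was not well above background on either array. The coding probe lies in the helix-loop-helix sequence, where TWIST1 and TWIST2 are nearly identical, and whether RNA of TWIST2 binds it was not tested.

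The TWIST1 probe that was lower by 2-fold, A_21_P0005474, was one of the distant pair on XR_428085. It gave 24.7 with NC, and its 4.6 with si-THOC2 was not well above background. The difference as measured was -2.11 (technical SD 0.42). With the dim signal set at the detection limit it shrank to -0.33, or 1.26-fold lower, which is less than that technical SD. Its neighbour A_21_P0005597, 250 bp away, gave 3.03 and 3.31 and was below background on both arrays. RefSeq gives the TWIST1 gene a span of 4.59 kb (GRCh38.p14), which is short beside the 116 kb between these probes and the coding ones. The mean of the compared TWIST1 probes was -1.02 (technical SD 0.21), and it averages 2 probes that are 2.18 apart. With probes well above background on both arrays the TWIST1 value was that of the coding probe, 0.07.

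TWIST2 (Dermo1) had 2 probes, 36.4 kb apart within a gene of 62.5 kb, and each was detected in both conditions. A_23_P21324 (chr2:239832044-239832103, plus strand, NM_001271893) gave 566 and 504, a difference of 0.14 (technical SD 0.05). A_19_P00322911 (chr2:239795604-239795663, plus strand, NM_057179) gave 21.3 and 35.2, a difference of 1.04 (technical SD 0.22), and was the only member probe higher by 2-fold. It passed the threshold by less than its technical SD. After the normexp background correction its difference was 0.39, but that correction adds an offset of 50, which shrinks differences of weak signals. The probes of TWIST2 differed by 0.89, and the gene value was 0.59 (technical SD 0.11). In its block of spots, A_19_P00322911 was itself the only one of 212 compared probes that was higher by 2-fold (0.472%), while 3.30% were lower. The share of higher calls ran from 0 to 19.9% over the 128 blocks. Whether the place of this probe on the array bears on its value was not tested.

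ZEB1 and ZEB2 are zinc finger homeobox repressors of CDH1. ZEB1 was measured by 2 probes 1.80 kb apart, and both were slightly lower with si-THOC2. A_33_P3374723 (chr10:31818063-31818122, plus strand) gave 323 and 237, a difference of -0.14 (technical SD 0.05). A_33_P3640690 (chr10:31816261-31816320, plus strand) gave 58.7 and 40.7, a difference of -0.22 (technical SD 0.22). The gene value of -0.18 (technical SD 0.11) kept its sign under all 10 alternatives, from -0.19 to -0.14. The alternatives that concern detection or dim signals could not change it, since both probes were detected on both arrays.

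ZEB2, the ZEB protein of normal melanocytes, was weakly detected. Its probe A_23_P142560 (chr2:145146261-145146320, minus strand) gave 33.9 with NC and 21.3 with si-THOC2. The difference of -0.36 (technical SD 0.22) lay inside the middle 90% of all probes. It was -0.066 after the normexp background correction, whose offset of 50 shrinks differences of weak signals. The ZEB2 value read 0.15 when the undetected probes were counted too, but the median of all 58199 probes was then 0.31. The ZEB2 probe A_33_P3243832 gave 15.6 and 14.7, and the non-coding A_21_P0000590 gave 3.73 and 4.56. Neither was well above background. No order between ZEB1 and ZEB2 can be read from these values, because signals of different probes are not on one scale.

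**Figure D2:**
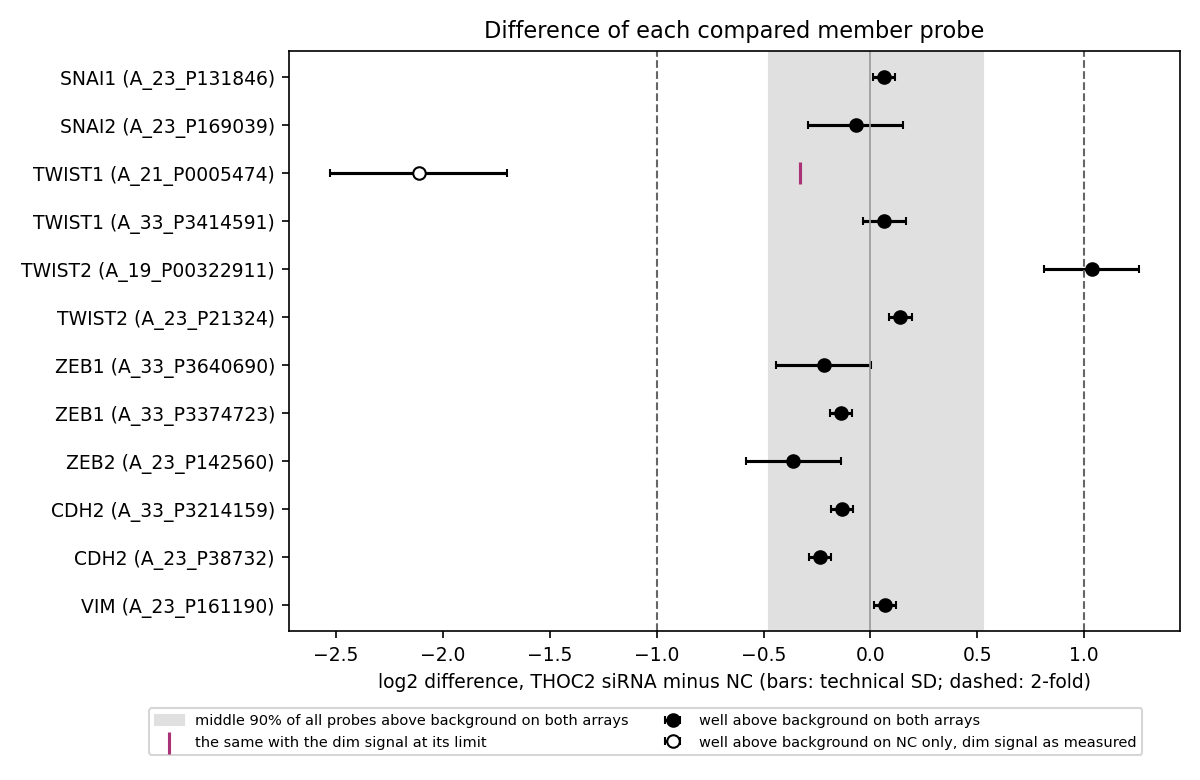
Log2 difference, si-THOC2 minus NC, of the 12 compared probes, with bars of 1 technical SD, the middle 90% of all 22207 probes detected on both arrays as a band, and 2-fold as dashed lines. Of the 12 points, 10 lie inside the band, and the exceptions are TWIST1 A_21_P0005474 at -2.11, whose value with the dim signal at its limit is -0.33, and TWIST2 A_19_P00322911 at 1.04.

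E-cadherin mRNA was not detected in either condition. CDH1 is one of the probes printed repeatedly, with 10 spots of A_23_P206359 (chr16:68869214-68869273, plus strand) on each array. With NC the 9 spots without an outlier flag ran from 2.93 to 3.41, with a median of 2.98. With si-THOC2 the 10 spots ran from 3.16 to 3.88, with a median of 3.25. The 308 negative control spots, which match no human transcript, had medians of 3.02 and 3.26, so the CDH1 spots lay at the level of the blank of their own array. The 1 flagged spot, an NC one, read 9.87 and was also under the limit. None of the 20 spots was well above background. A CDH1 signal would have had to be 4.92 times the median with NC, or 4.89 times with si-THOC2, to reach the lowest signal called well above background. No fold is given for CDH1, and a difference under those limits was not detectable.

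**Figure D3:**
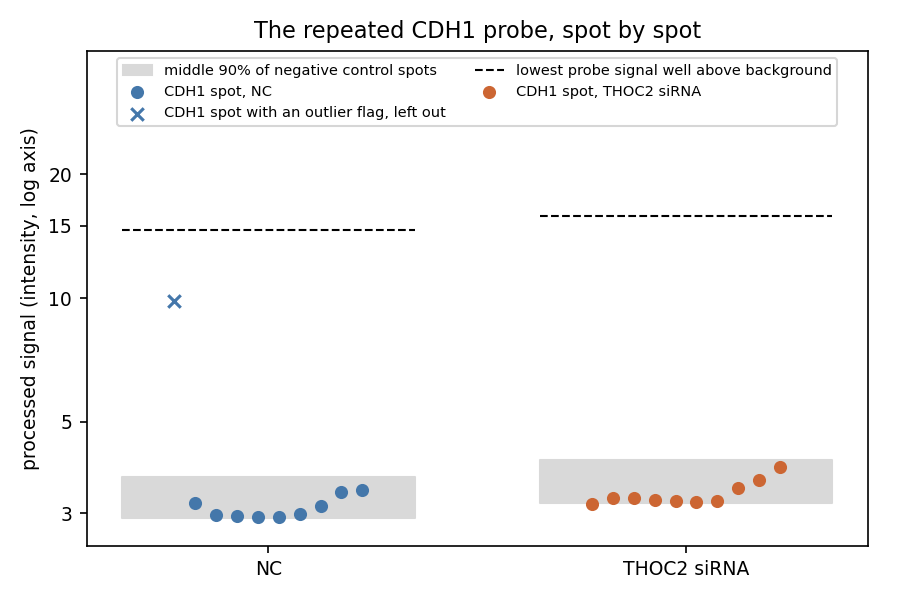
Processed signal (intensity, log axis) of the 10 CDH1 spots of each array, with the middle 90% of the negative control spots as grey bands and the lowest signal well above background as dashed lines. The 9 spots used with NC (2.93 to 3.41) and the 10 spots with si-THOC2 (3.16 to 3.88) sit at the height of the bands, far under 14.7 and 15.9. The cross is the NC spot left out, at 9.87.

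CDH2 (N-cadherin) was strongly detected by both of its probes, which lie 1.15 kb apart. A_33_P3214159 (chr18:25530936-25530995, minus strand) gave 2410 and 1774, a difference of -0.13. A_23_P38732 (chr18:25532081-25532140, minus strand) gave 1314 and 901, a difference of -0.23. Each has a technical SD of 0.05. Both probes were slightly lower with si-THOC2, and the CDH2 value of -0.18 (technical SD 0.04) stayed below 0 under all 10 alternatives, from -0.29 to -0.13. As for ZEB1, the alternatives that concern detection or dim signals could not change it. Both arrays thus showed N-cadherin mRNA well above background and no E-cadherin mRNA above it.

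VIM was strongly detected, at 54790 with NC and 46363 with si-THOC2. The log2 difference was 0.07 (technical SD 0.05). It moved between -0.05 and 0.14 under the alternatives, so its sign depends on the scaling. Among the compared probes of its block of spots, 9.47% were lower by 2-fold, above the median of 2.54% over all blocks, and with each block centred on its own median the VIM difference was 0.14.

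**Figure D4:**
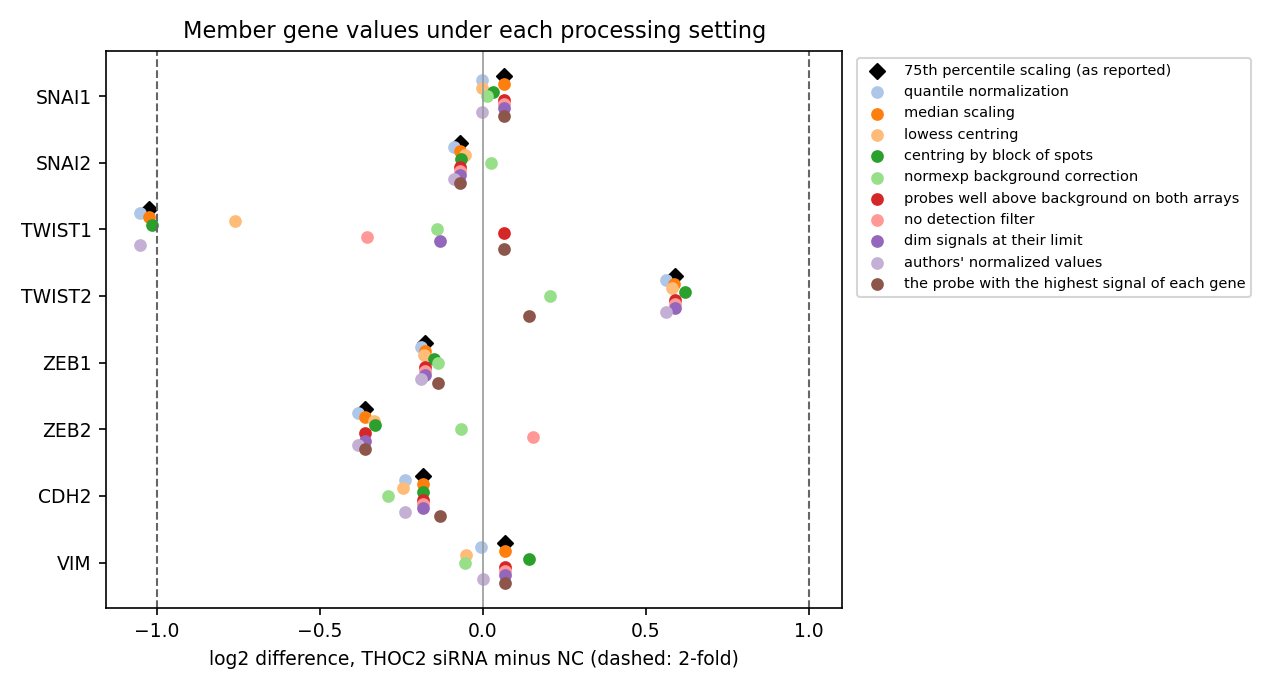
Gene value (log2 difference, mean of the compared probes) of the 8 measured genes under the reported setting and the 10 alternatives. SNAI1, SNAI2, ZEB1, CDH2 and VIM stay within 2-fold and close together under every setting shown, whereas TWIST1 runs from -1.05 to 0.07 and TWIST2 from 0.14 to 0.62.

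The genes around the switch were described by 7 lists, and each list's median is given beside the median of 0.02 over all 17514 genes compared. At 2-fold, 3.34% of those genes were lower and 2.96% higher. The partners and cofactors of the switch factors comprised 24 genes, of which SNAI3 and KLF8 were not detected. The other 22 had a median of 0.07, and none was past 2-fold. They include the E proteins that pair with TWIST1, which went different ways. TCF12 gave 277 with NC and 186 with si-THOC2 (-0.26), TCF4 stood at -0.07, and TCF3 gave 1151 and 1208 (0.38, technical SD 0.05). BTRC, a ubiquitin ligase subunit that targets SNAI1 protein, gave 177 and 105 (-0.44). At the other end were SMARCA4, a chromatin remodelling ATPase that ZEB1 recruits, with 12514 and 13667 (0.44), and the homeobox factor GSC with 74.8 and 88.0 (0.55).

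The 18 genes of the cadherin adhesion complex were all detected on both arrays. Their median was -0.10, with 12 below 0, 6 above and none past 2-fold. CTNNB1 and CTNNA1 (beta- and alpha-catenin), which link cadherins to actin, stood at -0.11 and -0.22. CTNND1 (p120-catenin), which keeps cadherins at the cell surface, stood at -0.09. These catenins were chosen after their values were seen. The lowest was CTNNA2, the neural alpha-catenin, with 44.9 and 18.8 (-0.95, technical SD 0.22) on the only one of its 4 probes that was detected. Next was the catenin ARVCF, with 31.2 and 18.9 (-0.41) on the 1 detected of its 2 probes. EXOC2, an exocyst subunit, gave 22.4 and 21.2 (0.23). ADAM10, the protease that sheds the cadherin ectodomain, stood highest at 0.30.

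Of 18 other cadherins, 11 were below background on both arrays, among them the P-cadherin gene CDH3 and the mesenchymal CDH11. The other 7 had a median of -0.16, and of 0.08 over the 6 detected on both arrays. CDH5, the endothelial cadherin, was the only one past 2-fold, with 17.0 and a dim 5.40 (-1.35 as measured), and no fold can be given because its NC signal lay so close to the limit. CDH15 gave 66.5 and 38.6 (-0.47), and CDH19, the cadherin of the neural crest and Schwann cell lineage, gave 110 and 75.1 (-0.25). CDH24 gave 15.4 and 19.9 (0.68), near the limit. CDH22, a cadherin first known from the brain, gave 716 and 1078 (0.90, technical SD 0.05). It was the cadherin with the highest difference.

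Of 30 epithelial genes, 12 were not detected on either array, among them EPCAM, OCLN, CLDN3, CLDN7, ESRP1 and GRHL2. The 18 compared had a median of 0.03, with 9 below 0 and 9 above. One was past 2-fold in each direction, and both were dim on 1 array. CRB3, a polarity protein, gave 22.8 and a dim 3.25. With the dim signal at its limit it was 1.16-fold lower (-0.21), which is less than its technical SD of 0.42. ELF3, an epithelial ETS factor, gave a dim 7.56 and 17.7. With the dim signal at its limit it was 1.5-fold higher (0.58, technical SD 0.42). The tight junction gene CLDN4 gave 4558 and 2763 (-0.41) on the 1 detected of its 2 probes. PATJ, a tight junction scaffold, stood at -0.22 from a pair of probes at -0.85, dim with si-THOC2, and 0.41. The serine protease ST14 gave 39.9 and 48.9 (0.60), and the mucin MUC1 gave 130 and 161 (0.62) on the 1 detected of its 2 probes. An undetected CDH1 thus stood beside an epithelial list that was detected in part.

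Of 32 mesenchymal genes, 7 were not detected, including the fibrillar collagen genes COL1A1, COL1A2 and COL3A1. The 25 compared had a median of 0.02, with 11 below 0 and 14 above, and 1 was past 2-fold. This was fibronectin (FN1), at 26 with NC and 42.4 with si-THOC2 (1.02, technical SD 0.22). It rests on 1 weak probe and passed the threshold by less than its technical SD. MMP9, a gelatinase of the extracellular matrix, gave 14249 and 20712 (0.85). Lower values were found for the actin-binding CALD1, with 615 and 327 (-0.60), and for the matrix protein SPARC, with 5252 and 2851 (-0.57). Among 13 relatives and partners of VIM, the 9 compared had a median of 0.18 and none was past 2-fold. That median depends on the processing and ran down to 0.046 under normexp. Desmin (DES) gave 193 and 221 (0.51), and nestin (NES), which co-assembles with vimentin, stood at 0.32. Peripherin (PRPH) gave 243 and 144 (-0.44), and the neurofilament gene NEFL gave 405 and 263 (-0.31).

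TGF-beta signalling induces SNAI, TWIST and ZEB genes in many cells. The list of inputs to the switch holds 24 genes, mostly of the TGF-beta and BMP pathways and their targets, with NOTCH1, JAG1 and WNT5A of the Notch and Wnt pathways. Of these, TGFB2, TGFBR1, TGFBR3 and BMP4 were not detected. The 20 compared had a median of -0.11, with 13 below 0 and 7 above, and none was past 2-fold. The lowest were inhibitors of basic helix-loop-helix factors. ID3 gave 1012 with NC and 453 with si-THOC2 (-0.85, technical SD 0.05). Both probes of ID2 were lower, at 147 and 70.1 for one and 65.6 and 30.3 for the other, and the ID2 value was -0.78 (technical SD 0.12). At the upper end SMAD3, a signal transducer of TGF-beta, gave 778 and 796 (0.34). LTBP1, which tethers latent TGF-beta to the matrix, gave 15.0 and 19.3 (0.67), near the limit, on the 1 detected of its 2 probes.

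**Figure D5:**
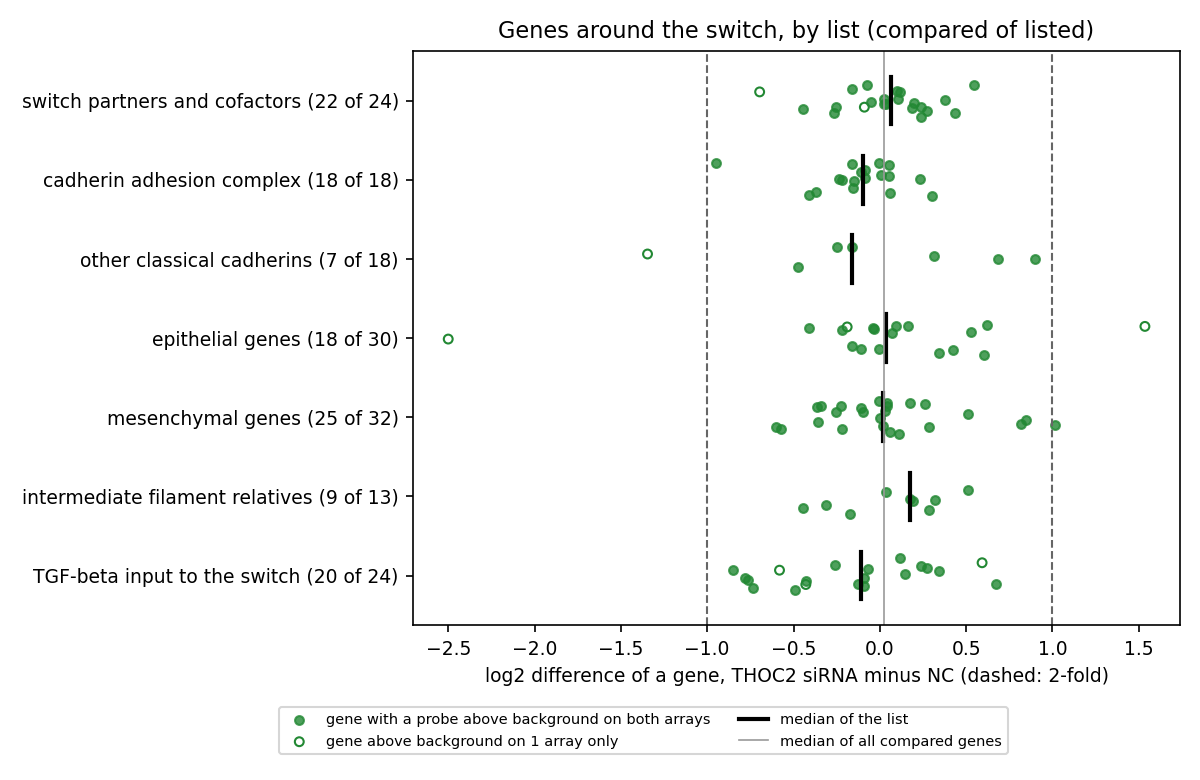
Log2 difference, si-THOC2 minus NC, of the compared genes of 7 lists, with each list's median as a black bar, the median of all 17514 genes as a grey line and 2-fold as dashed lines. The list medians run from -0.16 to 0.18, and of the 4 genes past 2-fold, 3 were well above background on 1 array only (open points).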

How the data were processed

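RNA of 1 NC and 1 si-THOC2 culture was measured on 1 array each. The deposited scanner files hold intensity values, which the authors made with Feature Extraction 10.7.1.1 by subtracting the background and removing trends across the array. The authors also deposited log2 values, whose equal distributions mark quantile normalization and which served here as an alternative. Their comparison table (log fold change, fold and direction per probe) was not used. Controls were left out, as were outlier-flagged spots (147 with NC, 168 with si-THOC2), and no spot was saturated. Repeat spots were averaged as log2 values, giving 58199 probes, and each array was scaled to its 75th percentile. A probe was compared if it was well above background on at least 1 array (24616 with NC, 22936 with si-THOC2) and was called at 2-fold, the fold of the methods. The Student test of the methods needs replicates and was not run. Gene values average the compared probes. A gene of a list was called only if all its compared probes were past 2-fold. A probe counts as detected if the scanner software marked over 50% of its used spots. Technical SDs come from 300 probes printed on 3 or more spots, grouped by mean log2 signal, with 244 of them above log2 8. A dim signal was raised to the lowest signal well above background of its array to give a bound. That bound is rough, since undetected signals can exceed the limit: with NC, ZEB2 A_33_P3243832 read 15.6 against a limit of 14.7. Precision is limited by the number of arrays, 1 for each condition.

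The genes and lists were chosen with earlier results of these data known. The genes named are the 9 members, THOC2, and from each list the genes past 2-fold plus the 2 highest and 2 lowest detected on both arrays. Other genes were named after their values were seen. AFDN, NECTIN1 to NECTIN4 and PATJ were matched through older symbols in RefSeq. Alternatives were quantile normalization, median scaling, lowess centring (span 0.3), centring by block of spots, normexp (offset 50), detection on both arrays, the authors' normalized values, dim signals raised to their limit, no detection filter, the brightest probe of a gene, and a fold of 1.5. The calculation was tested on simulated data. Changes were planted only in brighter probes detected on both arrays, so weak probes such as the members called at 2-fold were not covered. Positions are those of the deposited annotation (hg19), and exons and UTRs were not analysed here. Software was Python 3.11.15 (numpy 2.4.6, pandas 2.3.3, statsmodels 0.14.6, matplotlib 3.10.9) and R 4.3.3 (limma 3.58.1).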

Additional observations from a re-analysis of the deposited data

How the results depend on the processing

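No paired analysis was possible because each condition has only 1 array, and for the same reason no replicate could be left out. All settings compare the same 2 hybridisations, so none of them speaks to the spread between cultures. SNAI2, ZEB1 and the medians of the epithelial genes and of the inputs to the switch moved by less than their spread under the 10 alternatives for gene values. Detection on both arrays, no filter and dim signals at their limit cannot move a gene whose probes were all detected on both arrays. The authors' values nearly repeat the quantile setting. The TWIST1 value reversed to 0.065 with probes detected on both arrays and with the brightest probe, both of which leave out the distant probe. Otherwise it moved to -0.76 (lowess), -0.14 (normexp), -0.35 (no filter) and -0.13 (dim signals at their limit). The 1 lower call was lost (0) under normexp, detection on both arrays and dim signals at their limit, and the 1 higher call was lost (0) under normexp. Normexp adds an offset of 50, which shrinks differences of weak probes, so its loss of these weak calls does not decide whether they hold. A fold of 1.5 kept both counts at 1. SNAI1 fell to -0.0025 (quantile and authors' values) and -0.0026 (lowess). CDH2 lay at -0.24 (quantile, lowess and authors' values), -0.29 (normexp) and -0.13 (brightest probe). VIM lay at -0.0046 (quantile), -0.050 (lowess), 0 (authors' values), 0.14 (block centring) and -0.054 (normexp). TWIST2 moved to 0.21 (normexp) and 0.14 (brightest probe), and ZEB2 to -0.066 (normexp) and 0.15 (no filter). Of the list medians, the partners moved to 0.0011 (normexp) and 0.0053 (brightest probe), the mesenchymal genes to -0.056 (normexp) and -0.034 (brightest probe), the adhesion complex to 0.015 (no filter), and the other cadherins to 0.079 (both arrays) and 0.38 (no filter). The intermediate filament relatives moved to 0.10 (quantile), 0.073 (lowess), 0.11 (authors' values), 0.046 (normexp), 0.12 (no filter) and 0.076 (brightest probe). Without a detection filter the median of all 58199 probes was 0.31, and values under that setting were not centred on it and are to be read beside it. Where not stated, the cause was not tested. Weak signal limits SNAI2, ZEB2, the distant TWIST1 probes and TWIST2 A_19_P00322911.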

Other observations

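Further genes were picked out after their values were seen. The ID proteins lack the basic region that binds DNA and hold the E protein partners of TWIST factors in inactive dimers. Besides ID2 and ID3, ID1 was lower with si-THOC2, at 4700 with NC and 2236 with si-THOC2 (log2 difference -0.76, technical SD 0.05). Of the 22207 probes detected on both arrays, 1.22% were as low as that of ID1 and 0.797% were as low as that of ID3. Over the 9 alternatives that give probe values, ID1 ran from -0.88 to -0.76 and ID3 from -0.89 to -0.85. The ID2 probes, which are dimmer, ran from -0.79 to -0.43 and from -0.81 to -0.30. ID4 was below background on both arrays. HMGA2, a chromatin protein that acts upstream of SNAI1 and TWIST1, stood at -0.74 (technical SD 0.04) over 3 probes. None of these genes was past 2-fold.

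Antisense transcripts are encoded next to 3 of the genes. The VIM-AS1 probes went different ways, with 168 and 103 for A_21_P0014248 (-0.40, technical SD 0.10) and 79.3 and 80.1 for A_21_P0014785 (0.32, technical SD 0.10). ZEB1-AS1 gave 30.5 and 30.2 on its 1 detected probe (0.30, technical SD 0.22). ZEB2-AS1 was below background on both arrays.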
